A study of Bubalus bubalis with 6 samples.

Results

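The myostatin, activin and follistatin axis was followed through 10 genes in cultured buffalo muscle stem cells (MuSCs), before and after the switch to myogenic differentiation. The 10 genes were chosen by symbol, and all of them are among the 24616 genes listed in the deposited gene table. They comprise 4 ligand genes (MSTN, GDF11, INHBA and INHBB), 3 genes of follistatin-type proteins (FST, FSTL1 and FSTL3), the type II receptor genes ACVR2A and ACVR2B, and the type I receptor gene ACVR1B. Polyadenylated RNA had been sequenced from 3 proliferating samples kept in growth medium (GM, DMEM with fetal bovine serum) and 3 samples switched near confluence to differentiation medium (DM, DMEM with horse serum at a low level, for some days). All 6 samples were MuSCs of Bubalus bubalis isolated by enzyme digestion from the longissimus muscle of buffalo fetuses, and the labels name no knockdown or other agent. The labels do not give the animal or the culture behind each sample, so p-values measure the spread between these samples, which may be technical. Medium, serum, cell density and days in culture changed together between GM and DM samples, and their parts in any difference cannot be told apart.

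Myostatin, the product of MSTN, is a secreted ligand of the TGF-β family that restrains muscle growth, and cattle breeds with inactive MSTN are heavily muscled. Its mature part is closely related to that of GDF11, and activins are dimers of β subunits, βA encoded by INHBA and βB by INHBB. These ligands bind the type II receptors ACVR2A and ACVR2B, which recruit a type I receptor such as ACVR1B (ALK4), and the complex phosphorylates SMAD2 and SMAD3. Follistatin (FST) and follistatin-like 3 (FSTL3) wrap around the ligands outside the cell and keep them from their receptors. Follistatin-like 1 (FSTL1) shares a follistatin domain with them but is not known as a strong activin inhibitor.

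Counts on genes were 36657735 to 40305237 per GM sample and 35615864 to 38177614 per DM sample, of which the 10 genes together held 0.234 to 0.239% (GM) and 0.269 to 0.319% (DM). FSTL1 alone held 0.137 to 0.148% (GM) and 0.224 to 0.268% (DM), so the higher DM share comes from FSTL1 and not from the axis as a whole. DM replicate 3 stood apart: scaled chi-square distances (divided by degrees of freedom) were 42.5 to 43.3 from it to the other DM samples, 12.2 between those, and 6.43 to 11.04 between GM samples. Of the 10 axis genes, only ACVR2B departed in DM replicate 3 from the mean of the other DM samples by more than 1 on the log2 CPM scale, as 7.90% of tested genes did. Among markers set for the labelled cells, all 6 proliferation genes fell in DM samples, and of 9 tested myogenic genes 4 rose (MYOG, CKM, MYH3 and ACTA1) and 1, MYF5, fell. PAX7, the factor that marks muscle stem cells, stood at 18.5 CPM in GM and 9.78 CPM in DM samples and was not called. Every DM sample was below every GM sample for PAX7. Its log2 fold change of -0.92 (edgeR adjusted p = 0.00232) missed only the minimum of 1 for a call. DES, the intermediate filament of muscle cells, stood at 2274 CPM in GM and 2051 CPM in DM samples. Fibroblast markers were abundant as well, with a summed level of 24982 to 25199 CPM across GM and 77336 to 97240 CPM across DM samples. Most of this sum was COL1A1 (mean 15288 CPM in GM, 44329 CPM in DM) and COL3A1 (8299 and 39253 CPM), so it mainly reads these collagens. Of the fibroblast markers, 5 of 7 tested (COL1A1, COL3A1, LUM, DCN and THY1) rose, PDGFRA and DPT were not called, and TCF21 had too few counts to test. PDGFRA and DPT were also higher in every DM sample than in any GM sample. They missed only the fold change minimum, at log2 fold changes of 0.58 and 0.96 (edgeR adjusted p = 0.00252 and 1.14e-06). Smooth muscle and pericyte markers summed to 1225 to 1420 CPM in GM and 1541 to 1792 CPM in DM samples, with 1 of 5 called (PDGFRB, higher). The summed levels of adipocyte, endothelial, leukocyte and Schwann cell markers were all at most 13.6 CPM in any sample, none of these markers was listed at 0 in every sample, and of 16 of them tested edgeR called 4 higher and 4 lower. In such bulk samples a smaller share of a cell type and less RNA per cell cannot be told apart.

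Expression was compared with edgeR's quasi-likelihood test on all 15576 genes with at least 10 counts in total, with TMM normalization and Benjamini-Hochberg adjustment over all of them. A gene was called at an absolute log2 fold change (DM over GM) above 1 and an adjusted p-value under 0.05. Levels are given as CPM, counts per 1000000 of the TMM-normalized library, as mean ± SD over 3 samples. Of the 10 axis genes, all of which were tested, 5 were called, against a background of 25.3% of all tested genes. INHBB and ACVR2A were called higher in DM samples (background 15.0%), and INHBA, FST and ACVR2B were called lower (background 10.3%). All 10 had an adjusted p-value under 0.05, which 63.0% of tested genes had as well. GM and DM samples did not overlap for 9 of the 10, compared with 68.8% of tested genes. The median log2 fold change of the 10 genes was -0.52, and that of all tested genes was 0.03.

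**Figure D1:**
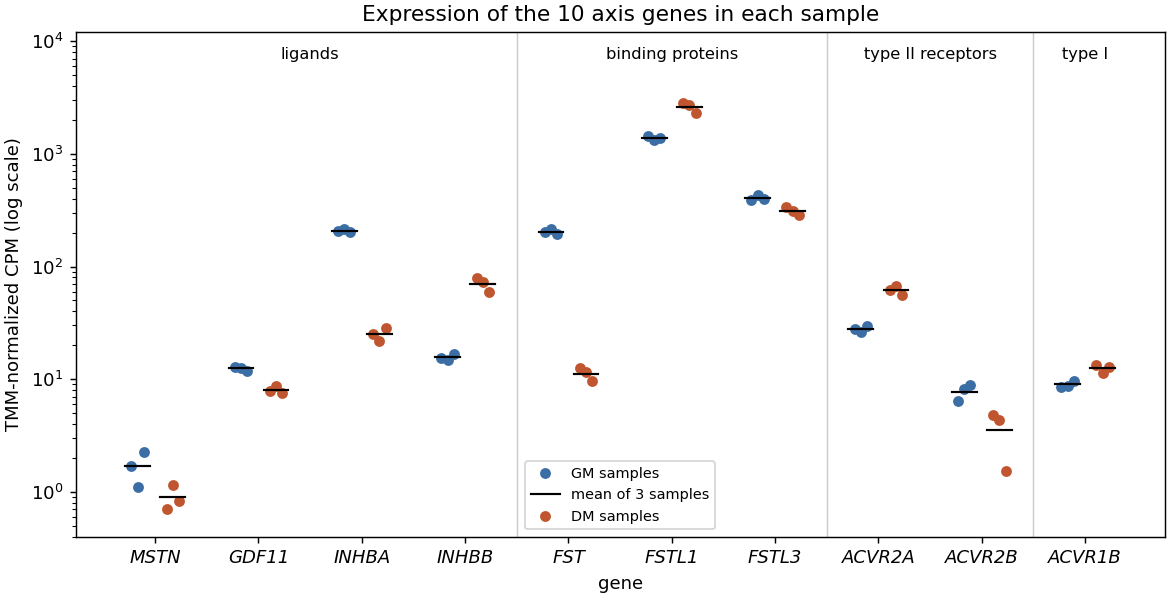
TMM-normalized CPM on a log axis of the 10 axis genes, ordered by role, with 1 point per sample (3 GM and 3 DM samples) and a line at the mean of each group. INHBA and FST stood near 200 CPM in GM samples and at 21.9 to 28.2 and 9.59 to 12.5 CPM in DM samples, while MSTN stayed at or under 2.24 CPM and was the one gene whose groups overlapped.

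Among the ligands, the activin β subunits moved in opposite directions. INHBA (ENSBTAG00000002912, chromosome 4, 79986254 to 79997754 as the table gives it) was at 208, 215 and 202 CPM in GM replicates 1, 2 and 3 and at 25.2, 21.9 and 28.2 CPM in DM replicates 1, 2 and 3. Each GM sample was thus above each DM sample by a wide margin. INHBA fell 8.30-fold (log2 fold change -3.05, with SE as the standard error at 0.092, edgeR adjusted p = 2.87e-09). It passed from the 94.95th to the 61.8th percentile of tested genes by mean CPM.

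INHBB (ENSBTAG00000032017, chromosome 2, 72523471 to 72527172) encodes the βB subunit. Its level was 15.4, 14.8 and 16.8 CPM in GM samples and 79.0, 72.7 and 59.6 CPM in DM samples. The groups lay far apart, with DM replicate 3 the lowest of the DM samples. INHBB rose, with a log2 fold change of 2.17 (SE 0.11, edgeR adjusted p = 5.43e-08), or 4.50-fold, from the 51.9th to the 83.8th percentile of tested genes. The summed fibroblast markers given above moved the same way as INHBB, and their part in its rise was not tested.

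GDF11 (ENSBTAG00000007417, chromosome 5, 57830915 to 57837708), a regulator of axial patterning in the embryo, was not called. It was at 12.9, 12.7 and 11.8 CPM in GM samples and at 7.88, 8.66 and 7.49 CPM in DM samples. All DM samples were below all GM samples, but the log2 fold change of -0.64 (95% interval -0.89 to -0.39) did not reach the minimum of 1.

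MSTN (ENSBTAG00000011808, chromosome 2, 6213566 to 6220196) was the least abundant of the 10 genes by RPKM, counts scaled to gene length and library size. GM replicates 1, 2 and 3 held 71, 46 and 85 counts, and DM replicates 1, 2 and 3 held 24, 42 and 31 counts. After normalization DM replicate 2, at 1.15 CPM, lay above GM replicate 2, at 1.11 CPM, so that the groups overlapped. The log2 fold change was -0.90 (SE 0.33, edgeR adjusted p = 0.0359), under the fold change minimum. Its 95% interval ran from -1.64 to -0.16, the widest of the ligand genes. It was called lower without GM replicate 2 (log2 fold change -1.13) and without DM replicate 2 (log2 fold change -1.10). The edgeR adjusted p rose above its threshold without GM replicate 1 (0.0884), without GM replicate 3 (0.167) and without DM replicate 1 (0.111). Without GM replicate 3 the log2 fold change was -0.65. Without DM replicate 3 the edgeR adjusted p was 0.0275, so the evidence for a fall of MSTN depends on which samples are kept.

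**Figure D2:**
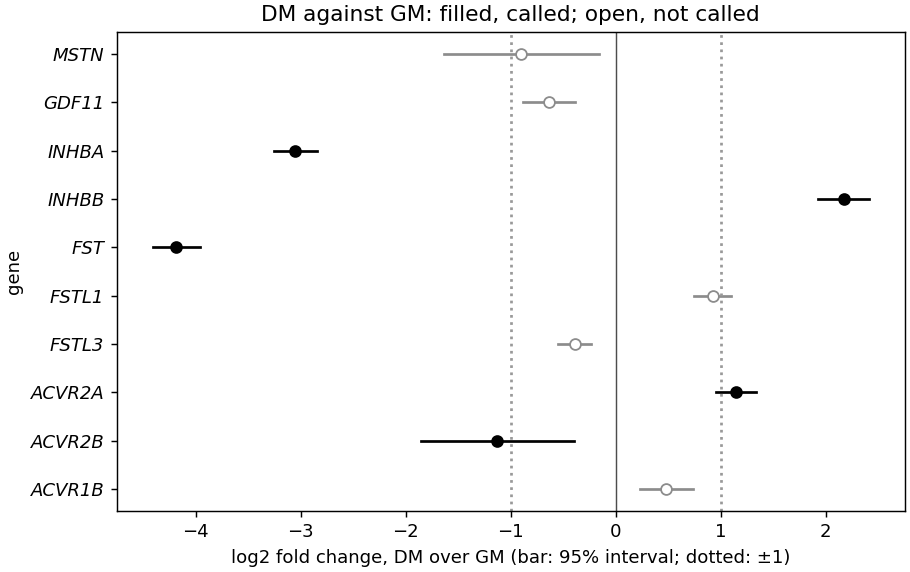
Log2 fold change (DM over GM) of each axis gene with its 95% interval from the edgeR fit; filled points were called, open points were not, and dotted lines mark the minimum of 1 in either direction. FST at -4.18 and INHBA at -3.05 lie farthest to the left, and INHBB at 2.17 farthest to the right, while the intervals of MSTN and ACVR2B are the widest.

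Of the follistatin-type genes, FST (ENSBTAG00000003329, chromosome 20, 25588642 to 25594057) had the largest change of the 10 axis genes. It stood at 202, 216 and 193 CPM in GM samples and at 12.5, 11.5 and 9.59 CPM in DM samples. All 3 DM samples were therefore far below the lowest GM sample. FST fell by 4.18 on the log2 scale (SE 0.10), or 18.2-fold, which was the 84th largest fall among the 15576 tested genes. It moved from the 94.8th to the 44.7th percentile of tested genes.

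FSTL3 (ENSBTAG00000003018, chromosome 7, 44896887 to 44903223), the closest relative of FST in ligand binding, was at 392, 432 and 401 CPM in GM samples and at 334, 313 and 285 CPM in DM samples. The groups did not overlap, but the difference was small, with a log2 fold change of -0.39 (95% interval -0.55 to -0.23), and FSTL3 was not called. FSTL1 (ENSBTAG00000022155, chromosome 1, 65742633 to 65802423), a glycoprotein secreted by mesenchymal and muscle cells, was the most abundant of the 10 by RPKM in every sample. Its level was 1429, 1328 and 1387 CPM in GM samples and 2811, 2732 and 2314 CPM in DM samples. Every DM sample was above every GM sample, at a log2 fold change of 0.92 (SE 0.079, edgeR adjusted p = 2.55e-06) that fell short of the minimum of 1. Without DM replicate 3 the log2 fold change of FSTL1 was 1.01, just above the minimum, and the gene was called higher. In the fit on transcripts without that sample, 2 axis transcripts were called higher, against 3 axis genes. The summed fibroblast markers were also higher in DM samples, and their part in the level of FSTL1 was not tested.

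The type II receptor genes also diverged. ACVR2A (ENSBTAG00000018114, chromosome 2, 48381791 to 48476764) was at 27.7, 26.3 and 29.8 CPM in GM samples and at 62.1, 67.5 and 56.1 CPM in DM samples. The lowest DM sample was well above the highest GM sample, and ACVR2A rose, with a log2 fold change of 1.15 (SE 0.086, edgeR adjusted p = 8.92e-07). ACVR2B (ENSBTAG00000018105, chromosome 22, 11864297 to 11894086), which binds activins and myostatin with high affinity, was at 6.37, 8.12 and 8.81 CPM in GM samples and at 4.80, 4.34 and 1.54 CPM in DM samples. All DM samples were below all GM samples, and DM replicate 3 was far below the other two. ACVR2B was called lower at a log2 fold change of -1.13 (SE 0.33, edgeR adjusted p = 0.0120). Without DM replicate 3 its log2 fold change was -0.76 and it was not called (edgeR adjusted p = 0.000221), so the call rests on that sample.

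ACVR1B (ENSBTAG00000013555, chromosome 5, 28038532 to 28070153), the activin type I receptor, was at 8.51, 8.75 and 9.73 CPM in GM samples and at 13.5, 11.4 and 12.8 CPM in DM samples. The groups did not overlap, and the log2 fold change of 0.48 (95% interval 0.23 to 0.74) was under the minimum. None of the 10 gene intervals overlaps another listed gene. Each gene has 1 mRNA transcript in the deposited table, with the same counts as the gene, so isoforms such as those of FST were not separated.

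Levels were compared between genes in RPKM, which divides counts by the listed gene length and by the sample's summed gene counts. The order of genes thus rests on the listed lengths, which run from 1131 (GDF11) to 4401 bases (ACVR2A). Whether each length covers the whole transcript was not tested. In GM samples the order of mean RPKM was FSTL1 (399), FSTL3 (216), FST (167), INHBA (131), INHBB (13.2), GDF11 (11.4), ACVR2A (6.56), ACVR1B (5.47), ACVR2B (4.38) and MSTN (0.630). No neighbours in this order overlapped over the 3 GM samples. In DM samples FSTL1 (707) and FSTL3 (154) stayed on top, followed by INHBB (55.5), INHBA (14.7), ACVR2A (13.6), FST (8.61), ACVR1B (7.14), GDF11 (6.85), ACVR2B (1.87) and MSTN (0.315). There, the ranges of INHBA and ACVR2A, of FST and ACVR1B, and of ACVR1B and GDF11 overlapped over the 3 DM samples. Within each DM sample FST was above ACVR1B (9.42 and 7.51, 9.01 and 6.60, 7.39 and 7.30 RPKM). The other overlapping neighbours changed order between DM samples. FST thus went from the third place to the sixth, and INHBB from the fifth to the third.

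**Figure D3:**
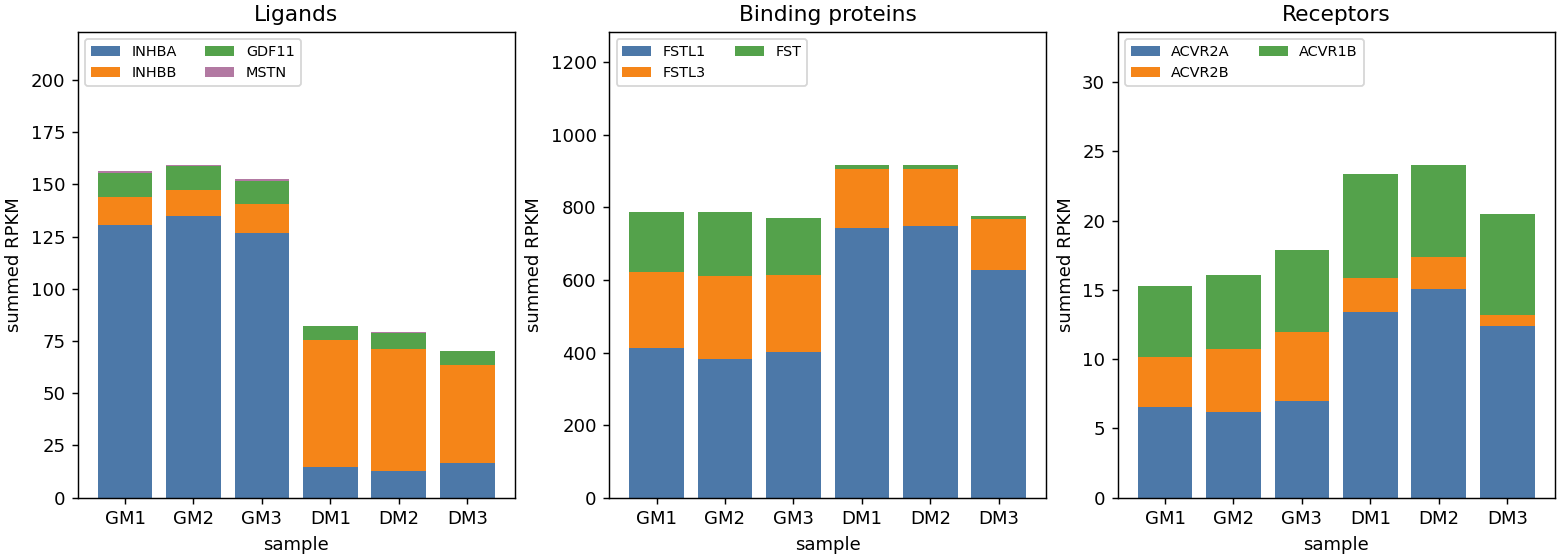
Summed RPKM in each of the 6 samples of the 4 ligand genes, the 3 follistatin-type genes and the 3 receptor genes, with each gene as a part of the bar. The ligand bar is mostly INHBA in GM samples and mostly INHBB in DM samples, and FST is 20.5 to 22.5% of the follistatin-type bar in GM and 0.953 to 1.03% in DM samples.

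Within a sample, INHBA made up 90.9, 91.6 and 90.0% of the summed RPKM of both activin β subunits in GM replicates 1, 2 and 3. In DM replicates 1, 2 and 3 it made up 19.2, 18.3 and 26.0%. The leading β subunit was therefore INHBA in every GM sample and INHBB in every DM sample. The INHBA to INHBB ratio was 37.3-fold lower in DM samples, a difference of -5.22 on the log2 scale, between means of 3.31 ± 0.14 in GM and -1.91 ± 0.36 in DM samples (SD, n = 3 each). A two-sided exact permutation test gave p = 0.1, the smallest that 3 samples against 3 allow, and an adjusted p of 0.125 over the 5 ratios tested, so none could pass 0.05. The ACVR2A to ACVR2B ratio was 1.813, 1.351 and 1.409 in GM samples and 5.40, 6.47 and 15.2 in DM samples, where the groups did not overlap (exact p = 0.1, adjusted p = 0.125). DM replicate 3 had the highest ratio by far, and ACVR2B was lowest there. The FST to INHBA ratio was 1.25 to 1.32 in GM and 0.446 to 0.692 in DM samples, again without overlap and at the same p-values. The MSTN to GDF11 ratio overlapped between groups (exact p = 0.6, adjusted p = 0.600), and MSTN reached 0.0774 of the level of GDF11 at most.

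Summed levels were compared as well. The 4 ligand genes together were at 156, 159 and 152 RPKM in GM samples and at 82.4, 79.2 and 70.3 RPKM in DM samples. FST and FSTL3 together were at 375, 405 and 370 RPKM in GM samples and at 172, 167 and 149 RPKM in DM samples. Both sums were lower in each DM sample than in any GM sample, and their ratio, binding proteins to ligands, was 2.40, 2.55 and 2.43 in GM samples and 2.08, 2.10 and 2.12 in DM samples. The difference of -0.23 on the log2 scale had no overlap (exact p = 0.1, adjusted p = 0.125), but with counts in place of RPKM it was 0.27, in the opposite direction. FST held 42.7 to 44.5% of the summed RPKM of FST and FSTL3 in GM and 4.97 to 5.49% in DM samples, so that FSTL3 was the main part of the DM sum.

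Other genes of the pathway were followed as a list of 45 entries, of which 43 are listed by symbol and 40 were tested. edgeR called 19 of them (47.5%, against the background of 25.3%). In DM samples 11 were higher and 8 lower, and the median over the 40 log2 fold changes was 0.15, against 0.03 over all tested genes. Among other ligand subunits, both tested genes were called higher. INHA, the α subunit that turns activin β subunits into inhibins, rose from 1.28 ± 0.449 CPM to 8.504 ± 2.14 CPM (log2 fold change 2.74, SE 0.27). INHBE, which encodes βE, rose from 3.33 ± 0.547 CPM to 7.03 ± 0.608 CPM (log2 fold change 1.08). Its call was lost with library size alone (0.98), without GM replicate 2 (0.99) and in the test against a fold change of 2. INHBC was listed at 0 in every sample.

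Ligand processing was represented by 6 tested genes, with 2 called higher and 2 called lower. PCSK6, a proprotein convertase, rose from 0.777 ± 0.0485 CPM to 3.09 ± 1.14 CPM. TLL1, a protease of the BMP1 family that can release myostatin from its propeptide, fell from 1.07 ± 0.353 CPM to 0.375 ± 0.138 CPM, and its call was lost in the test against a fold change of 2. BMP1 itself, named after its values were seen, was far more abundant and moved the other way. It stood at 337 ± 4.66 CPM in GM and 507 ± 30.5 CPM in DM samples. Its log2 fold change of 0.59 (edgeR adjusted p = 1.25e-05) was under the minimum for a call. FURIN, which cleaves many precursors of the TGF-β family and was named after its values were seen, fell from 178 ± 5.05 CPM to 86.5 ± 6.33 CPM (log2 fold change -1.04). It was not called without DM replicate 2 (-0.97), with the study's filter on RPKM (-0.98) or in the test against a fold change of 2. Of 4 tested genes of other binding proteins, 2 rose and 2 were not called. DCN, a matrix proteoglycan that binds myostatin, rose from 447 ± 15.7 CPM to 2311 ± 608 CPM, and is also among the fibroblast markers. TCAP, a titin-binding protein of the Z-disc that binds the myostatin precursor, rose from 1.81 ± 0.144 CPM to 10.3 ± 3.17 CPM.

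Of 5 tested genes of other receptors and coreceptors, 1 was called higher and 2 lower. BAMBI, a receptor without a kinase domain that blocks signaling, fell from 5.61 ± 0.401 CPM to 1.55 ± 0.184 CPM. IGSF1, an immunoglobulin-domain membrane protein, fell from 7.47 ± 0.760 CPM to 1.68 ± 0.437 CPM. Downstream of the receptors, none of 6 tested genes of SMAD transducers and partners was called by edgeR, by DESeq2 or in any other alternative that kept the minimum fold change. An unadjusted p-value under 0.05 was reached by 3 of the 6 with edgeR and by 3 with DESeq2. After adjustment in edgeR 3 of the 6 were still under 0.05, against 63.0% of all tested genes, so they missed only the minimum fold change. SMAD2, SMAD3 and SMAD4, named after their values were seen, had log2 fold changes of 0.43, 0.46 and -0.09. Their edgeR adjusted p-values were 0.000348, 0.00105 and 0.252, and the SMAD4 interval overlaps another listed gene. SMAD2 stood at 69.7 ± 4.57 CPM in GM and 94.0 ± 4.66 CPM in DM samples. Of 6 tested negative regulators, SMURF2, a ubiquitin ligase that marks SMADs and their receptors for degradation, was the one called, and it fell from 234 ± 16.9 CPM to 65.0 ± 1.19 CPM (log2 fold change -1.85). SMAD7, the inhibitory SMAD, also named after its values were seen, had a log2 fold change of -0.94 and was not called, but was called lower without DM replicate 3 (-1.15) and with library size alone (-1.04).

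Genes known as targets of SMAD2 and SMAD3 comprised 6 tested genes, of which 1 rose, 2 fell and 3 were not called. CDKN1A, the cell cycle inhibitor p21, rose from 53.6 ± 8.40 CPM to 266 ± 25.6 CPM (log2 fold change 2.31). Of 5 muscle genes on which the axis is known to act, 3 rose, 1 fell and 1 was not called. The latter, MYOD1, a myogenic determination factor also named after its values were seen, was at 32.5 ± 3.10 CPM in GM and 60.5 ± 18.8 CPM in DM samples (log2 fold change 0.90). It was called higher without DM replicate 3 (1.14). MYF5, an early myogenic factor, fell from 143 ± 6.38 CPM to 22.0 ± 3.34 CPM, and MYOG, which drives terminal differentiation, rose from 52.9 ± 13.3 CPM to 167 ± 15.5 CPM. The ubiquitin ligases of muscle wasting, FBXO32 and TRIM63, named after their values were seen, rose by log2 fold changes of 1.33 and 1.64 from low levels of 2.24 ± 0.271 CPM and 0.587 ± 0.0285 CPM, and the call of FBXO32 was lost in the test against a fold change of 2.

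**Figure D4:**
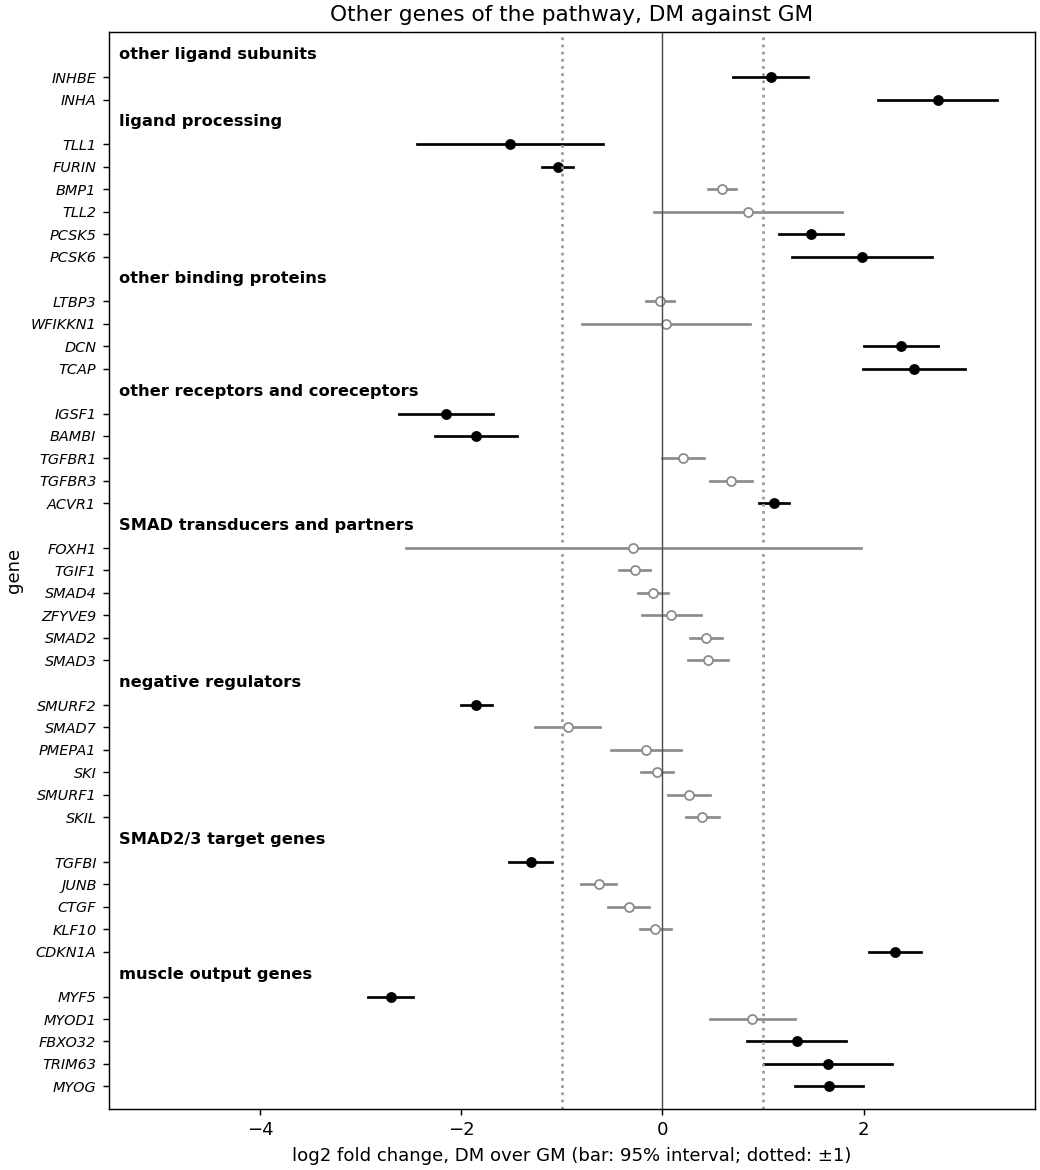
Log2 fold change (DM over GM) with its 95% interval of tested genes of the wider pathway, grouped by role; filled points were called, open points were not, and dotted lines mark 1 in either direction. MYF5 at -2.70 and INHA at 2.74 lie farthest out on either side, and all 6 genes of SMAD transducers and partners are open.

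Genes with a pattern like those of FST and INHBB, the called axis genes with the largest fall and the largest rise, were sought among the other 8059 genes with a symbol and a mean of at least 10 CPM. Likeness was the Euclidean distance between log2 CPM values centred on each gene's mean over the 6 samples, which mostly reads the size of the difference between groups. The genes nearest to FST were IGFBP5 (distance 0.34), PENK (0.57), ASS1 (0.68) and NTN1 (0.93). IGFBP5, a binding protein of insulin-like growth factors, fell from 102 ± 13.1 CPM to 4.999 ± 1.13 CPM. PENK, the precursor of enkephalins, fell from 661 ± 36.5 CPM to 47.2 ± 5.66 CPM. IGFBP5, ASS1 and NTN1, like FST, were lowest among DM samples in DM replicate 3, while PENK was lowest in DM replicate 1. The distance covers all 6 samples, so likeness among DM samples is partly set by the choice of genes.

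Nearest to INHBB were DNM1 (distance 0.13), NID2 (0.15), COL3A1 (0.16), NUAK1 (0.18) and ECHDC2 (0.20). NID2, a basement membrane protein, rose from 225 ± 2.98 CPM to 986 ± 133 CPM. COL3A1, a fibrillar collagen and one of the fibroblast markers, rose from 8299 ± 191 CPM to 39253 ± 7036 CPM. Each of these 5 genes, like INHBB, was lowest among DM samples in DM replicate 3. That sample is part of the distance, so this likeness is partly set by the choice and is not a separate result.

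**Figure D5:**
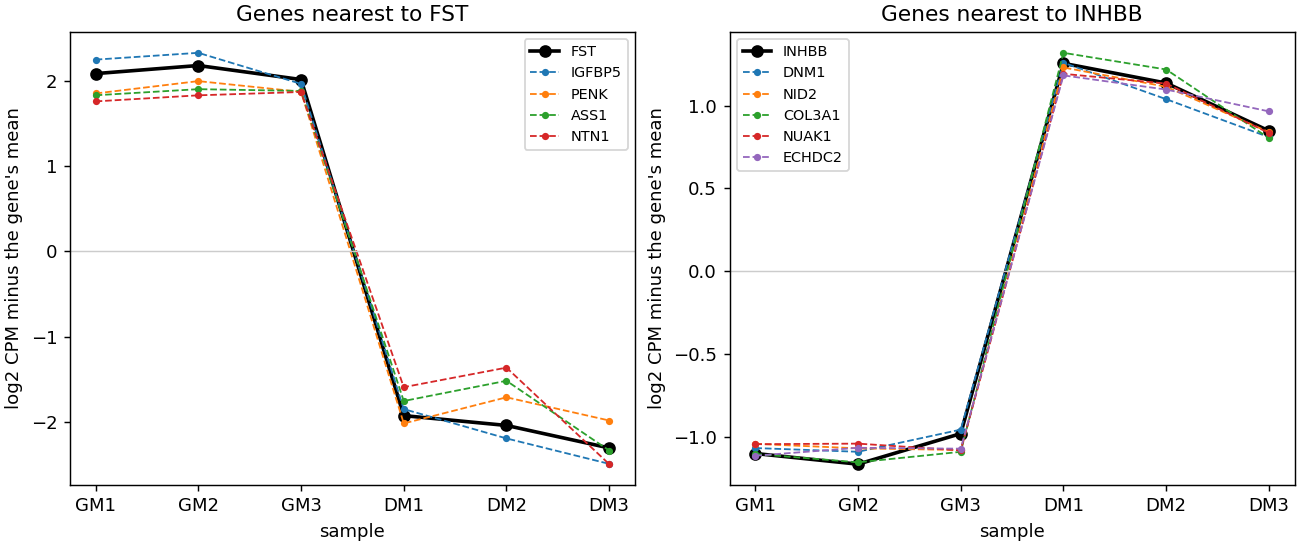
Log2 CPM minus the gene's mean over the 6 samples, for FST and for INHBB (thick lines) and genes near each (dashed lines). Genes were chosen by their distance over these 6 samples, so the lines of a panel run together by that choice. Those near INHBB lie closer to it than those near FST do to FST.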

How the data were processed

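MuSC RNA from 3 GM and 3 DM samples was measured by polyA RNA-seq. The authors deposited raw counts per gene and per mRNA transcript, without normalization, and RPKM values. The deposited RPKM equals counts per kilobase of the listed length per 1000000 summed gene counts of the sample. The paper's methods name HISAT2 and a buffalo genome, the submitters' processing notes list Bowtie 0.12.2 with mm8 and mm9, and the tables list cattle Ensembl identifiers without a build, and their coordinates are printed unchanged. The study's supplement cites HTSeq beside its account of gene-level counting, and a strand setting is not given in the sources used here. Lists of the authors' own fold changes, p-values and q-values for DM against GM were not used.

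Genes and mRNAs with at least 10 counts in total were tested with edgeR 4.0.16 in R 4.3.3 (glmQLFit, glmQLFTest, TMM, Benjamini-Hochberg over all features tested), with standard errors from the F statistic. The thresholds are those of the paper's methods, which applied them to DESeq2. Log2 CPM used a prior count of 2. Ratios of RPKM were tested with two-sided exact permutation tests in scipy 1.17.1. The pipeline was tested on simulated data.

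The members and lists were chosen with earlier results of these data known. Named genes are the 10 members, the 2 called genes with the largest change in each role of the wider pathway (every gene where 3 or fewer were tested), and the 5 genes nearest to the called members with the largest rise and fall. A gene that this rule names is not reported here. Alternatives were DESeq2 1.42.0, library size alone, DESeq2's size factors, other filters on low counts, calls without a minimum fold change, edgeR's glmTreat at a 2-fold threshold, blocking on the replicate number and each sample left out in turn. Deviations from group means correlated at -0.02 to -0.01 between GM and DM samples with the same number. Between those with different numbers they correlated at -0.01 to 0.02. Such values cannot show whether samples with the same number share an animal or culture, so pairing is unknown.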

Additional observations from a re-analysis of the deposited data

How the results depend on the processing

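INHBA, INHBB and FST were called in all 15 alternatives to the edgeR test, and all 10 axis genes kept their direction in every alternative that gave them a value. ACVR2A was called in 14 alternatives and lost in the test against a fold change of 2. ACVR2B was called in 13, and lost in that test and without DM replicate 3. The number of axis genes called was 5 to 6 with each sample left out in turn, 10 with no minimum fold change (4 higher, 6 lower), and 3 in the test against a fold change of 2 (1 higher). Transcripts of these genes gave the same numbers in these last 2 settings, 10 (4 higher, 6 lower) and 3 (1 higher), and with library size alone 1 transcript was called higher. Without DM replicate 3, 4 transcripts were called (2 higher, 2 lower), against 5 genes (3 higher, 2 lower). For the wider pathway, no minimum fold change gave 30 genes (18 higher), and the study's RPKM rule (1 or more in over 50% of samples) gave 4 lower. That rule also left MSTN untested. Of all genes, that rule called 2197 (1232 higher, 965 lower), no minimum fold change 9813 (4920 higher, 4893 lower) and the test against a fold change of 2 called 2293 (1398 higher, 895 lower). With a replicate block 3837 genes, 5 axis genes and 19 genes of the wider pathway were called, and it changed no call of an axis gene, though the adjusted p of MSTN in edgeR moved from 0.0359 to 0.0542. Of the ratios, MSTN to GDF11 turned from -0.24 to 0.36 on the log2 scale with 1 RPKM added and ran from -0.53 to 0.033 with each sample left out in turn, and FST plus FSTL3 to the 4 ligands turned to 0.27 with counts, which drop the gene lengths. The cause of the MSTN to GDF11 change was not tested. MSTN had the fewest counts of the 10 axis genes, 24 to 85 per sample, and TLL1 in the wider pathway had 8 to 60.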

Other observations

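Of the 10 axis genes, 8 were lower in DM replicate 3 than in the mean of the other DM samples on the log2 CPM scale. The share of all tested genes lower there was not counted, so nothing particular to the axis can be read from this. The log2 difference was -1.54 for ACVR2B, -0.35 for INHBB, -0.32 for FST and -0.26 for FSTL1. INHBA was higher there (0.26), and ACVR1B differed by 0.05.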
